A study of Mus musculus with 6 samples.

Results

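Disease-associated microglia genes are the transcripts that microglia, the resident macrophages of the brain, switch on around amyloid plaques, dying neurons and damaged myelin. The 10 genes described here are Apoe, Trem2, Tyrobp, Lpl, Cst7, Clec7a, Spp1, Gpnmb, Itgax and Csf1. They were taken by symbol from a count matrix of 24411 genes, which held all 10, and all 10 passed the filter on low counts. RNA was sequenced from primary microglia isolated from the brains of C57BL/6J mice aged 8 weeks. Germline Mir137 knockout mice (gKO, 3 libraries) were compared with wild-type mice (gWT, 3 libraries). Both genotypes share strain, age and isolation, and the labels name no treatment. The design text speaks of 4 mice without tying them to libraries, so p-values cover the spread among the 6 libraries only, and part of it may be technical. The study set out to find which microglial transcripts respond when miR-137 is missing.

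The disease-associated state is known as a programme that starts with lipid-sensing and adaptor genes and, in its later stage, depends on the receptor TREM2. TREM2 binds lipids and lipoproteins, among them those carrying apolipoprotein E, and signals through the adaptor TYROBP to the kinase SYK. The later stage is known for phagocytic, lysosomal and lipid-handling genes, such as those for lipoprotein lipase, cystatin F, dectin-1 and osteopontin. MicroRNAs repress transcripts mainly by pairing of their seed, bases 2 to 8, with sites in 3′ UTRs.

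The mature miR-137-3p sequence is shown because it is what the knockout removes, and the Apoe sequence because it is the one seed match found in these genes. Capitals mark the seed in the microRNA and its complement, AGCAATA, in the transcript.
mmu-miR-137-3p: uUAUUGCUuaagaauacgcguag
Apoe 3′ UTR: gggaggtggttttgcAGCAATAgaaatgaa
The microRNA lies on the plus strand of chromosome 3 (118433901 to 118433923, RefSeq sequence, GRCm38.p6). The Apoe match lies on the minus strand of chromosome 7 (19696149 to 19696155, GRCm38), at base 225 of the 271-base 3′ UTR of the longest coding transcript in GENCODE M21. Of the 10 genes, 1 held the motif in this UTR, while 10.3% of 12932 tested genes did. Promoter windows of 250 bases before to 50 bases after a start were in the RefSeq table for 8 of the genes, all but Tyrobp and Lpl. None of their 12 windows held AGCAATA or its complement on the other strand, TATTGCT, against 2.16% of 32851 windows. A match is a description and not a shown site, and an empty window says only that these letters are not in it.

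The libraries held 14603884 to 17652976 counts. gKO replicate 3 stood apart, at 91.5 on the first principal component against -37.7 to -3.45 for the other 5 libraries. Its deviation from the others fell with transcript length across genes (Spearman rho = -0.53, over genes, which are not replicates). The same measure was 0.25 and 0.31 for gKO replicates 1 and 2. It was 0.25, -0.03 and 0.10 for gWT replicates 1, 2 and 3. Leaving out gKO replicate 3 therefore does not by itself free a comparison of length trends. Results that rest on gKO replicate 3 are given with and without it. Summed microglial markers, 10 of 10 detected, were at 40385 to 42917 CPM (counts scaled to a common library total) in gKO and 39720 to 42695 CPM in gWT. Xist, the RNA of X inactivation, had 0, 0 and 8 counts in gKO and 1830 to 2519 counts in gWT, while the Y-linked gene Ddx3y had 1220 to 1522 counts in all 6 libraries. Xist is normally made by female cells and Ddx3y by male cells. Transcripts of both sexes were thus present in gWT, and almost only those of males in gKO. This difference went with genotype and cannot be told apart from it in any comparison here. Mir137 itself had 0 counts in all 6 libraries, and a microRNA precursor is poorly captured in such libraries, so it checks nothing about the labels. In bulk libraries, fewer cells of a type and less RNA per cell cannot be told apart.

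None of the 10 genes passed the test between genotypes. The edgeR quasi-likelihood test with Benjamini-Hochberg adjustment over 13403 genes called 0 of 10, against 84 of all genes, 0.627%. The smallest adjusted p among the 10 was 0.441, for Itgax. At an unadjusted p under 0.05 there were 2 of the 10, Itgax and Clec7a, against a background of 10.9%. The fold changes split evenly, 5 positive and 5 negative where 50.9% of all genes were positive, with a median log2 fold change of 0.02 against 0.01 over all genes tested. Their median absolute log2 fold change was 0.25 against 0.24. DESeq2 also called 0 of the 10, against 2.77% of the genes to which it gave an adjusted p. In the authors' deposited table, which lists 75 genes as higher and 201 as lower, 0 of the 10 appear. Every gene in it lies past a fold-change minimum that none of the 10 reached.

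The groups did not overlap in 3 of the 10 genes, against 21.3% of all tested genes: Clec7a was higher and Gpnmb and Itgax were lower in every gKO library. In each of these genes gKO replicate 3 held the most extreme value, as the plot of levels shows.

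**Figure D1:**
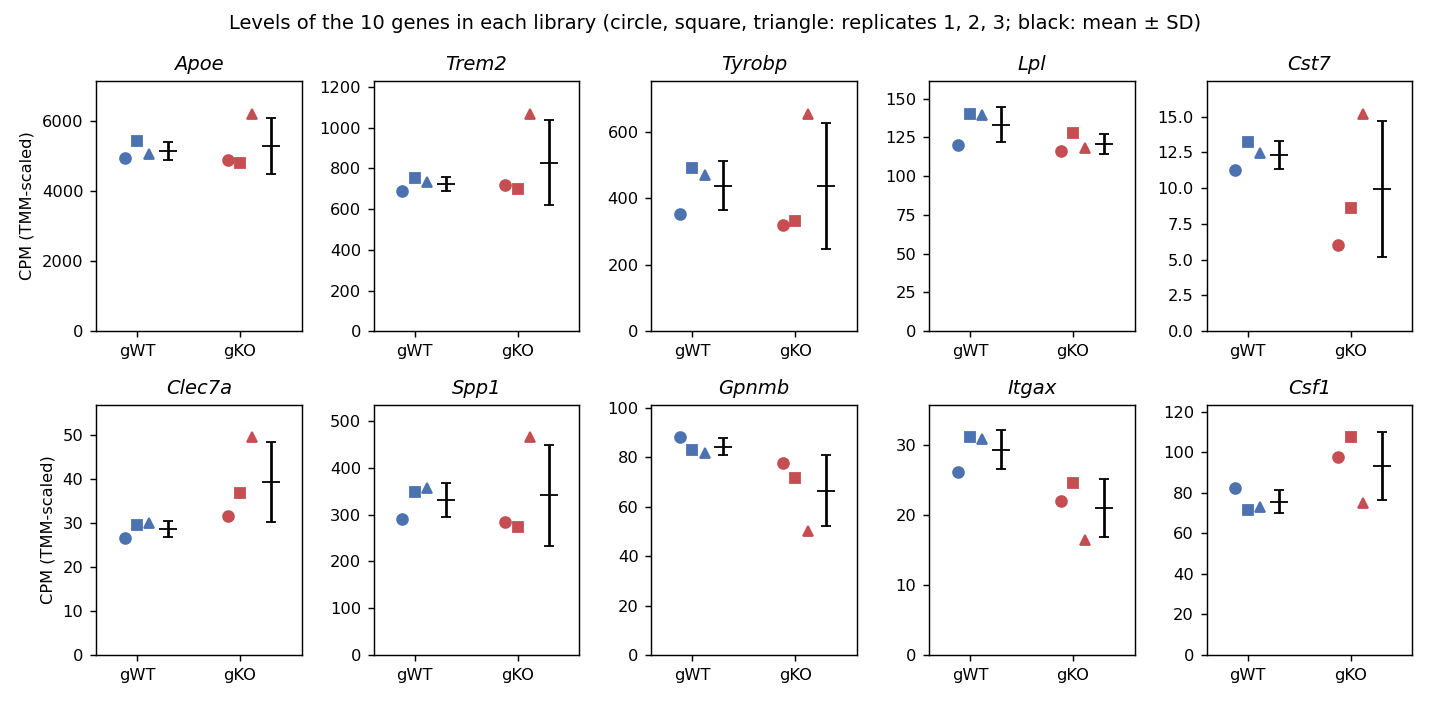
Levels of the 10 genes as TMM-scaled CPM (y axis, from 0) in gWT (blue) and gKO (red), with circles, squares and triangles for replicates 1, 2 and 3 and black bars for mean ± SD (n = 3). The gKO triangle is the highest of the 6 points in 6 genes and the lowest in Gpnmb and Itgax.

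Levels between genes are compared per transcript length, as TPM, the counts divided by transcript length and scaled to the same total in each library. In gWT, Apoe led at 9295 ± 244 TPM (SD, n = 3), and its mean CPM over the 6 libraries was above that of 99.9% of tested genes. Tyrobp at 1862 ± 250 TPM and Trem2 at 1693 ± 14.3 TPM came next, and their ranges overlapped, so their order is not settled by these libraries. Spp1 followed at 559 ± 43.2 TPM. The order went on with Lpl at 82.3 ± 4.14 TPM, Gpnmb at 58.1 ± 4.41 TPM and Csf1 at 46.2 ± 5.28 TPM, whose ranges were separate. Clec7a at 32.03 ± 1.02 TPM and Cst7 at 31.7 ± 1.41 TPM overlapped, and Itgax was the lowest at 18.4 ± 1.14 TPM. The genes of receptor complex and lipid transport that resting microglia are known to express ranked above the other 7 genes, of which Spp1 was the highest. In gKO the order was the same except for swaps between Tyrobp and Trem2 and between Gpnmb and Csf1, both pairs having overlapping ranges there.

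Trem2 encodes the lipid-sensing receptor of the state (chromosome 17, 48346401 to 48354147, GRCm38). It had 717, 700 and 1069 CPM in gKO replicates 1, 2 and 3, and 688, 751 and 732 CPM in gWT. The groups overlapped, with gKO replicates 1 and 2 inside the gWT range and replicate 3 above it. Its log2 fold change was 0.20 (SE 0.18, edgeR adjusted p = 0.770), and -0.04 (SE 0.06, edgeR adjusted p = 0.762) without gKO replicate 3. Per length it had 1688 and 1687 TPM in gKO replicates 1 and 2, inside the gWT range of 1678 to 1707 TPM, and 1966 TPM in replicate 3.

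Tyrobp encodes DAP12, the adaptor with an immunoreceptor activation motif through which TREM2 signals (chromosome 7, 30413760 to 30417585). It had 321, 332 and 654 CPM in gKO and 354, 490 and 470 CPM in gWT. Replicates 1 and 2 of gKO lay below every gWT library and replicate 3 above every one, so that the group means of 436 ± 189 and 438 ± 73.5 CPM (SD, n = 3 each) were nearly equal. The log2 fold change was -0.01 (SE 0.28, edgeR adjusted p = 0.997). In the fit without gKO replicate 3, Tyrobp was called lower, with a log2 fold change of -0.43 (SE 0.12, edgeR adjusted p = 0.0494). Tyrobp per Trem2, both in TPM, was 0.816, 0.864 and 1.12 in gKO and 0.938, 1.19 and 1.17 in gWT. The ratio overlapped between genotypes, its lowest values being those of gKO replicates 1 and 2.

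Clec7a encodes dectin-1, a receptor for fungal beta-glucans that also signals through SYK (chromosome 6, 129461591 to 129472779, typed as a polymorphic pseudogene in GENCODE M21). It had 31.5, 36.8 and 49.4 CPM in gKO and 26.6, 29.5 and 29.9 CPM in gWT. Every gKO library lay above every gWT library, and the log2 fold change of 0.45 (SE 0.20) was the largest positive value among the 10. The test did not call it (edgeR adjusted p = 0.458). It fell to 0.24 (SE 0.15, edgeR adjusted p = 0.356) when gKO replicate 3 was left out, with the groups still apart. Neutrophils and monocytes also express Clec7a, and markers of both moved with genotype. Summed neutrophil markers, all 10 detected and positive, were at 566 to 1059 CPM in gKO and 283 to 350 CPM in gWT. Summed monocyte markers, 8 of 9 with a positive fold change, were at 146 to 210.5 CPM in gKO and 81.7 to 94.6 CPM in gWT. None of these markers was at 0 in all libraries. Their part in the Clec7a values was not tested.

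Apoe encodes apolipoprotein E, the main lipoprotein component of brain lipid transport (chromosome 7, 19696109 to 19699188). It had 4872, 4791 and 6209 CPM in gKO and 4935, 5427 and 5062 CPM in gWT. Replicates 1 and 2 of gKO were just below the gWT range and replicate 3 above it. Per length the groups were apart, at 8868, 8915 and 8821 TPM in gKO and 9304, 9534 and 9046 TPM in gWT, so the overlap depended on the scale. Its log2 fold change was 0.04 (SE 0.14, edgeR adjusted p = 0.945), and -0.10 (SE 0.05, edgeR adjusted p = 0.278) without gKO replicate 3. Apoe, which holds the seed match shown above, was called in neither fit. Astrocytes also express Apoe strongly, and their summed markers, detected in 10 of 10 cases and lower on average in each, were at 270 to 315 CPM in gKO and 380 to 421 CPM in gWT. Their part in the Apoe values was not tested.

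Lpl encodes lipoprotein lipase, which frees fatty acids from triglyceride-rich particles (chromosome 8, 68880491 to 68907448). It had 117, 128 and 118 CPM in gKO and 120, 140 and 139 CPM in gWT. The groups overlapped through gKO replicate 2 and gWT replicate 1, and gKO replicate 3 lay between the other gKO libraries. Its log2 fold change was -0.14 (SE 0.13, edgeR adjusted p = 0.761), and -0.13 (SE 0.09, edgeR adjusted p = 0.413) without that library. Of the 10 genes, Lpl moved least when gKO replicate 3 was left out.

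Spp1 encodes osteopontin, a secreted ligand of integrins and CD44 (chromosome 5, 104435118 to 104441050). It had 285, 273 and 465 CPM in gKO and 290, 347 and 356 CPM in gWT. As with Tyrobp, replicates 1 and 2 of gKO lay below all gWT libraries and replicate 3 above them. The log2 fold change was 0.04 (SE 0.22, edgeR adjusted p = 0.965), and -0.26 (SE 0.08, edgeR adjusted p = 0.0794) without gKO replicate 3, a reversal of sign. Its exons overlap Gm42793, a same-strand transcript that GENCODE M21 marks as still to be tested, so reads of either gene could be counted for Spp1.

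Csf1 encodes macrophage colony-stimulating factor, a survival and growth ligand of microglia (chromosome 3, 107741048 to 107760469). It had 97.5, 107 and 74.7 CPM in gKO and 82.2, 71.6 and 73.0 CPM in gWT. Replicates 1 and 2 of gKO lay above every gWT library, while replicate 3 fell among them. The log2 fold change was 0.30 (SE 0.16, edgeR adjusted p = 0.571). Leaving that library out, Csf1 was called higher, with a log2 fold change of 0.43 (SE 0.10, edgeR adjusted p = 0.0168), the smallest adjusted p of the 10 in that fit. Csf1 per Csf1r, its receptor, both in TPM, was 0.00688, 0.00788 and 0.00780 in gKO and 0.00673, 0.00584 and 0.00567 in gWT. All 3 gKO libraries were above all 3 gWT libraries in this ratio, which was chosen after earlier results were known and was not tested. Immediate-early genes, which respond to stimulation and to cell handling, were higher as well: 10 of 17 passed the test as higher and 0 as lower, and their sum was 23969 to 25210 CPM in gKO and 14093 to 15732 CPM in gWT. Endothelial cells and fibroblasts, which also express Csf1, had lower marker sums in gKO. The endothelial sum, 12 of 12 detected, was 451 to 552 CPM in gKO and 838 to 1081 CPM in gWT. The fibroblast sum, 10 of 10 detected, was 375 to 604 CPM in gKO and 881 to 1312 CPM in gWT. The part of these genes and cells in the Csf1 values was not tested.

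Cst7 encodes cystatin F, an inhibitor of lysosomal cysteine proteases such as cathepsin C (chromosome 2, 150570415 to 150578944). It had 6.01, 8.64 and 15.2 CPM in gKO and 11.3, 13.2 and 12.5 CPM in gWT. Its gKO libraries spanned more than the whole gWT range, and the fewest counts, 105, were in gKO replicate 1. The log2 fold change was -0.31 (SE 0.34, edgeR adjusted p = 0.810). It was -0.76 (SE 0.27, edgeR adjusted p = 0.103) without gKO replicate 3, the largest in size of the 10 in that fit but short of the threshold. T and NK cells are known for Cst7 too. The sum of 11 of their markers, 1 of which passed the filter on low counts, was 1.89 to 5.44 CPM in gKO and 0.354 to 1.66 CPM in gWT, and Cd3g, Ncr1 and Prf1 were at 0 in all 6 libraries. The sum was low but higher in every gKO library, and its part in the Cst7 values was not tested.

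Gpnmb encodes a transmembrane glycoprotein of lysosome-rich macrophages (chromosome 6, 49036546 to 49070929). It had 77.8, 71.5 and 50.2 CPM in gKO and 88.1, 83.2 and 81.7 CPM in gWT. All gKO libraries lay below all gWT libraries, replicate 3 by the widest margin. Its log2 fold change was -0.34 (SE 0.18, edgeR adjusted p = 0.551). The value without gKO replicate 3 was -0.18 (SE 0.10, edgeR adjusted p = 0.275).

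Itgax encodes CD11c, the alpha chain of complement receptor 4 and a marker of dendritic cells (chromosome 7, 128129547 to 128150657). It had 22.04, 24.6 and 16.5 CPM in gKO and 26.1, 31.1 and 30.9 CPM in gWT. The groups did not overlap, and its fold change of -0.48 on the log2 scale (SE 0.20, edgeR adjusted p = 0.441) was the largest in size among the 10. With gKO replicate 3 left out it was -0.34 (SE 0.16, edgeR adjusted p = 0.217). Of 7 dendritic cell markers tested, 6 had a positive fold change and 0 were called. The sum of the 9 markers was 45.2 to 60.2 CPM in gKO and 35.4 to 38.9 CPM in gWT, none being at 0 in all libraries. Their part in the Itgax values was not tested.

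Leaving out gKO replicate 3, which leaves 2 libraries against 3, 1 of the 10 genes was called higher (Csf1, against 3.99% of 13814 genes) and 1 lower (Tyrobp, against 3.82%). In either direction the background was 7.81%. In that comparison 2 of the 10 had a positive fold change, against 47.1% of all genes. Their median was -0.16, and that of all genes was -0.02. The groups did not overlap in 8 of the 10, Clec7a and Csf1 being higher and Apoe, Tyrobp, Cst7, Spp1, Gpnmb and Itgax lower, against 41.0% of all genes. No direction common to the 10 held in both fits, and the plot of fold changes shows 3 genes, Trem2, Apoe and Spp1, crossing 0.

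**Figure D2:**
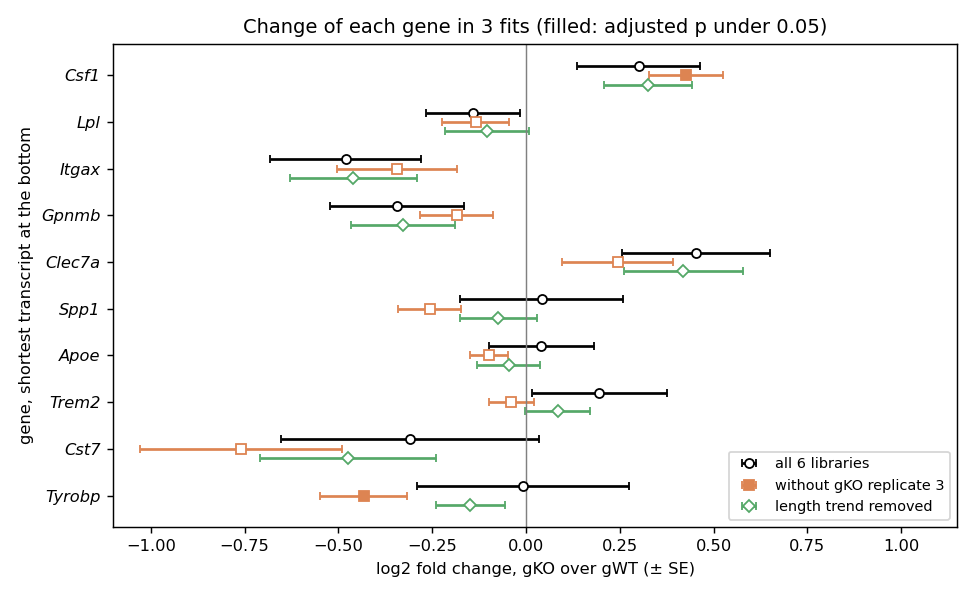
Log2 fold change of gKO over gWT (x axis) ± SE for each gene, ordered by transcript length (y axis), with all 6 libraries (black), without gKO replicate 3 (orange) and with each library's trend with transcript length removed (green). Filled symbols, Csf1 and Tyrobp in orange, have an adjusted p under 0.05.

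Levels of the 10 genes in gKO replicate 3 tended to go with transcript length. The 6 genes with coding transcripts of 597 to 2277 bases (Tyrobp, Cst7, Trem2, Apoe, Spp1 and Clec7a) all had their highest CPM of the 6 libraries in it. Across all tested genes 31.3% did. In TPM this did not hold for Apoe, which was lowest in it, or for Cst7, which was below gWT replicates 2 and 3. Of the 4 genes with transcripts of 3701 to 4176 bases, Gpnmb and Itgax had their lowest CPM in gKO replicate 3, as did 31.8% of all tested genes. Against the mean of gKO replicates 1 and 2, replicate 3 held 2.07 times as much Cst7, 2.005 times as much Tyrobp and 1.29 times as much Apoe. It held 0.729 times as much Csf1, 0.707 times as much Itgax and 0.672 times as much Gpnmb. Over the 10 genes this ratio fell with length (Spearman rho = -0.82, a description over genes of the same 3 libraries). All tested genes showed the same gradient, from a median ratio of 1.94 for 678 genes up to 1000 bases to 0.728 for 4682 genes above 4000 bases. Removing each library's length trend left 0 of the 10 called, against 2.20% of all genes, with Csf1 at 0.33 (edgeR adjusted p = 0.211), Tyrobp at -0.15 and Cst7 at -0.47.

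**Figure D3:**
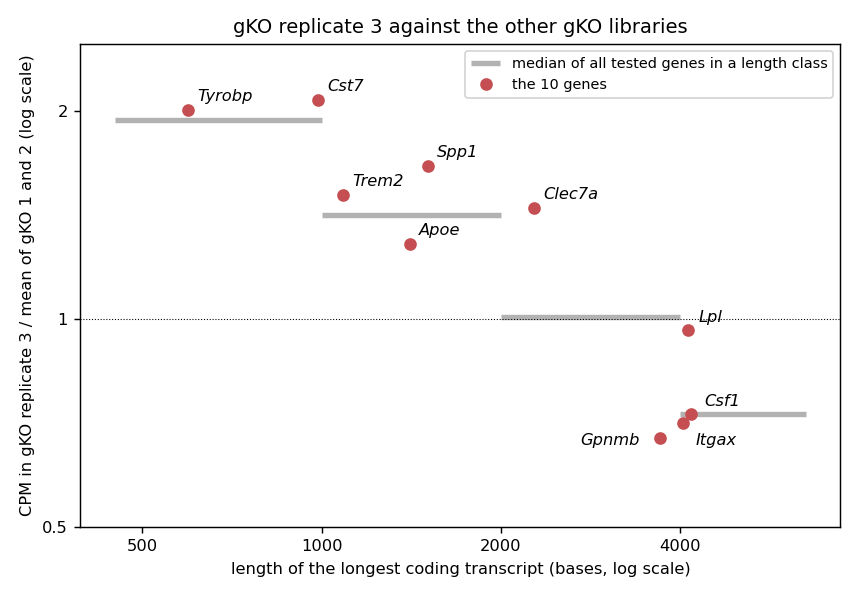
Ratio of the CPM in gKO replicate 3 to the mean of gKO replicates 1 and 2 (y axis, log scale) against the length of the longest coding transcript (x axis, bases, log scale) for the 10 genes (red), with the median ratio of all tested genes in 4 length classes (grey). The ratio runs from 2.07 in Cst7 to 0.672 in Gpnmb.

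The genes whose pattern over the 6 libraries was closest were sought for Cst7 and Tyrobp, which had the widest range on the log2 scale, 1.32 and 1.03. Closeness was the root mean square difference of centred log2 CPM. For Tyrobp these were Ppp1r14b (0.06), Edf1 (0.07) and Cst3 (0.08), the last encoding cystatin C, at 6628, 6432 and 13896 CPM in gKO and 7194, 9025 and 8764 CPM in gWT. For Cst7 they were Hspb1 (0.09), Gtpbp6 (0.10) and Mtfp1 (0.10). All 6 have their highest CPM in gKO replicate 3, which follows from how they were picked, as the CPM of Cst7 and Tyrobp peaks there. Their coding transcripts have 722 to 1617 bases.

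Genes of the same pathway were read from 9 lists of 152 genes, of which 142 were tested. By edgeR 2 were called higher and 0 lower, 1.41%, against 0.627% of all genes, and their median log2 fold change was 0.04. Both, Ccl3 and Slc2a5, stood in lists of microglial state. They were called with gKO replicate 3 left out, but in neither case with any other single library left out. Those other fits called few genes at all. Over all genes, 4 were higher and 1 lower without gKO replicate 1, and likewise without replicate 2. With any one gWT library left out, 0 were called in either direction. Without gKO replicate 3 the medians of the lists ran from -0.08 for cathepsins and cystatins to 0.15 for the partners of TREM2 and dectin-1. Of the listed genes, 19 were called higher and 11 lower in that fit, against 3.99% and 3.82% of 13814 genes. Its counts for single lists below stand against the same shares.

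Among 29 other genes of the disease-associated state, Ccl3 was called higher and none lower, with a median of 0.13. Ccl3, a chemokine of activated macrophages, had 524, 541 and 1094 CPM in gKO and 191, 219 and 213 CPM in gWT. Every gKO library was above every gWT library, at a log2 fold change of 1.79 (SE 0.28, edgeR adjusted p = 0.0385). Leaving out any one of the other 5 libraries gave Ccl3 log2 fold changes of 1.73 to 1.97 and edgeR adjusted p values of 0.0815 to 0.329. Those fits called few or no genes over all, as given above. The log2 fold change of Ccl3 was 1.35 without gKO replicate 3, where the call stood. Ccl3 is also known as a target of early activation, and the immediate-early sums given beside Csf1 were higher in every gKO library too. The part of early activation in the Ccl3 values was not tested. In the fit without gKO replicate 3, 4 genes of the list were called higher, namely Ccl3, Ccl4, Cd74 and Hif1a, and 3 lower, namely Cd9, Dkk2 and Mamdc2. Cd9 had 503 CPM in the left-out library, above the gWT range of 305 to 338 CPM. The others kept their direction there. Dkk2 and Mamdc2 had only 11 to 17 counts in gKO replicates 1 and 2, against 67 to 115 in gWT. In the authors' deposited table, Ccl3 and Ccl4 are listed as higher, with log2 fold changes of 1.80 and 1.57, and the Wnt antagonist gene Dkk2 as lower, at -2.58.

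Of 15 homeostatic genes, which mark resting microglia and are known to decline in the disease-associated state, Slc2a5 was called higher and none lower, with a median of -0.02. Slc2a5, a fructose transporter gene, had 247, 229 and 233 CPM in gKO and 129, 125 and 145 CPM in gWT. Its groups were wide apart (edgeR adjusted p = 0.0312 for a log2 fold change of 0.83 ± 0.12 SE), and gKO replicate 3 did not stand out. Slc2a5 had edgeR adjusted p values of 0.0959 to 0.317 with any one of the other 5 libraries left out, at log2 fold changes of 0.79 to 0.89. These are the same fits that called few or no genes over all. Leaving out gKO replicate 3, 3 homeostatic genes were called higher (Siglech, Mertk and Slc2a5) and 3 lower (P2ry13, Olfml3 and Fcrls). In the left-out library Mertk had 108 CPM, below the gWT range of 279 to 313 CPM, and Siglech lay inside its gWT range. Slc2a5 and the 3 genes called lower kept their direction there.

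Signalling partners of TREM2 and dectin-1 had 0 of 19 called, with a median of 0.04. The lowest p values belonged to Trem1, an amplifying receptor of myeloid cells that also uses TYROBP, and Bcl10, an adaptor downstream of dectin-1. Trem1 had 11.3, 10.6 and 11.7 CPM in gKO and 4.54, 4.86 and 3.28 CPM in gWT. The groups were apart at a log2 fold change of 1.41 (SE 0.27), which edgeR did not call (adjusted p = 0.0825) and the authors' deposited table lists as higher at 1.41. Trem1 is known from neutrophils and monocytes, whose marker sums are given beside Clec7a, and their part in it was not tested. Once gKO replicate 3 was left out, Trem1, Plcg2 and Inpp5d were called higher and Lat2 lower, Plcg2 and Inpp5d encoding a phospholipase and a phosphatase of TREM2 signalling. In gKO replicate 3, Plcg2 had 214 CPM and Inpp5d 770 CPM, below the gWT ranges of 279 to 294 and 1094 to 1126 CPM. Lat2, at 69.6 CPM there, lay inside its gWT range.

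Relatives of dectin-1 had 0 of 10 tested genes called and a median of 0.27, which was 0.03 without gKO replicate 3. Clec4d and Clec12a, myeloid receptors, had log2 fold changes of 1.5 (SE 0.43, edgeR adjusted p = 0.231) and 0.85 (SE 0.30, edgeR adjusted p = 0.356). Each was at 11.6 CPM or less in all 6 libraries and higher in every gKO library than in any gWT library. Neutrophils and monocytes express these receptors too, and their marker sums, given beside Clec7a, were also higher in every gKO library. Their part in these values was not tested. In the fit without gKO replicate 3, Clec2d was called lower, at a log2 fold change of -1.52 (edgeR adjusted p = 0.0083). In the left-out library it had 11.2 CPM, inside the gWT range of 9.54 to 12.5 CPM.

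Lipoprotein and lipid-handling genes had 0 of 24 called and a median of -0.01. Clu, the lipoprotein gene for clusterin, had 60.6, 56.7 and 74.1 CPM in gKO and 148, 85.9 and 87.0 CPM in gWT. The groups did not overlap, with gWT replicate 1 far above the rest (edgeR adjusted p = 0.289 for a log2 fold change of -0.75 ± 0.23 SE). Astrocytes express Clu as well, and their marker sums are given beside Apoe. Cd36, a scavenger receptor gene, had a log2 fold change of 0.55 (SE 0.20, edgeR adjusted p = 0.381). Genes called higher when gKO replicate 3 was left out included Npc1 and Rxra, encoding a cholesterol exporter of the lysosome and a nuclear receptor. In the left-out library itself both were below every gWT library. Npc1 had 257 CPM there against 362 to 409 CPM in gWT, and Rxra 77.1 CPM against 119 to 133 CPM. The apolipoprotein gene Apoc1 was called lower, on 14 and 3 counts in gKO replicates 1 and 2 against 56 to 123 in gWT. The left-out gKO replicate 3 had 9.12 CPM of Apoc1, above the 3.28 to 7.03 CPM of gWT.

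Cathepsins and cystatins, the proteases and inhibitors among which cystatin F acts, had 0 of 15 called and a median of 0.08. Ctso and Ctsw had the smallest p values, at log2 fold changes of 0.18 (SE 0.16) and 0.78 (SE 0.78). In the fit without gKO replicate 3, Ctsh and Cst3 were called lower and none higher, at -0.40 and -0.36. In the left-out library both were above every gWT library, Ctsh at 333 CPM against 238 to 264 CPM.

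Receptors and ligands of the CSF family had 0 of 5 called and a median of -0.01. Il34, the other ligand of the receptor of Csf1, had 1.09, 2.88 and 2.62 CPM in gKO and 9.43, 6.17 and 3.28 CPM in gWT. Its groups did not overlap, opposite in sign to Csf1 (edgeR adjusted p = 0.350 for a log2 fold change of -1.52 ± 0.54 SE). Its levels were low. Csf2ra had a log2 fold change of -0.06 (SE 0.12). Csf2 and Csf3 were at 0 in all 6 libraries.

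Integrin and osteopontin partners had 0 of 12 called and a median of -0.01. Cd44, a receptor of osteopontin, had 40.8, 37.2 and 54.4 CPM in gKO and 25.6, 32.1 and 27.6 CPM in gWT, with no overlap (edgeR adjusted p = 0.273 for a log2 fold change of 0.63 ± 0.19 SE). Itga5, a fibronectin receptor chain, had a log2 fold change of -0.60 (SE 0.23, edgeR adjusted p = 0.384). Without gKO replicate 3, Itgal, Itgb3 and Itga9 were called higher. In the left-out library Itgb3 had 49.6 CPM, below the 75.9 to 78.9 CPM of gWT. Itga9 had 146 CPM there, below the 219 to 232 CPM of gWT, and Itgal lay inside its gWT range.

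Transcriptional regulators of the state had 0 of 13 called and a median of 0.07. Mef2a, a factor of microglial identity, had 780, 752 and 655 CPM in gKO and 550, 551 and 566 CPM in gWT, the groups being apart (edgeR adjusted p = 0.280 for a log2 fold change of 0.39 ± 0.12 SE). Tgfbr1, a receptor of the TGF-beta signal that maintains resting microglia, had a log2 fold change of 0.25 (SE 0.12, edgeR adjusted p = 0.504). Both were called higher without gKO replicate 3, as was Tgfbr2. Tgfbr2 had 554 CPM in the left-out library, below its gWT range of 572 to 599 CPM.

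**Figure D4:**
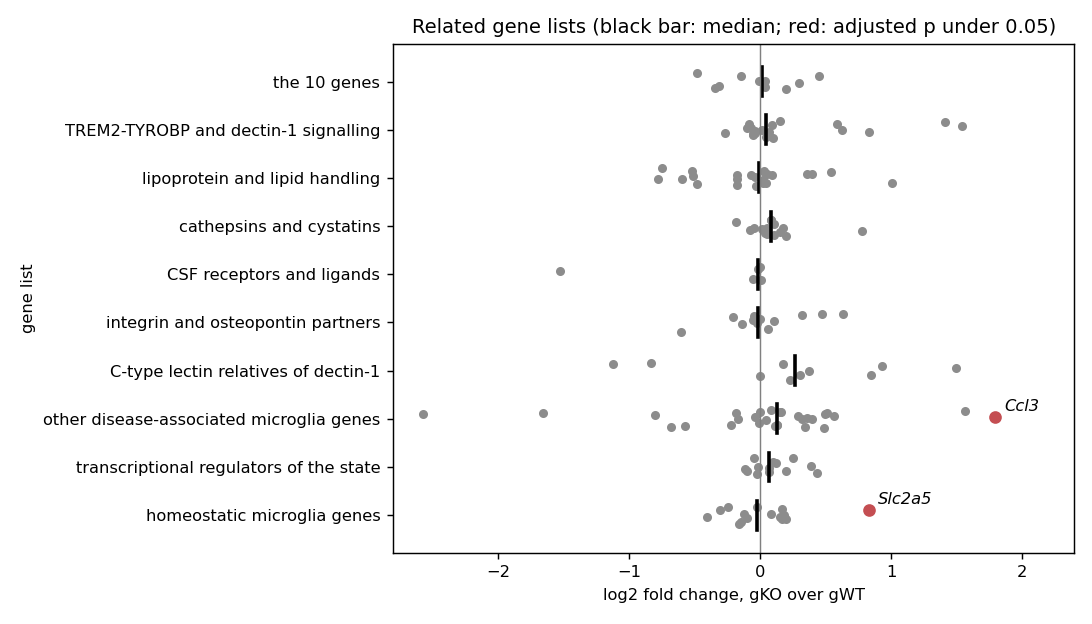
Log2 fold change of gKO over gWT (x axis) for each tested gene of the 10 and of the 9 related lists (y axis), each gene shown in 1 list, with black bars for medians and red for an adjusted p under 0.05. Ccl3 and Slc2a5 are the genes in red, and no gene among the 10 is.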

How the data were processed

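The authors deposited expected counts per gene symbol, not normalized, for 6 libraries, and lists of selected genes. Per the file headers, the authors' lists hold for each gene a normalized mean (signal), a log2 fold change, scores for its error and statistic, and p-values. The submitters' processing notes mention STAR 2.7.9a, RSEM and DESeq2, and mm10 or GRCm38 as builds, without saying what each did. Annotation and strandedness: not given in the sources used here.

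After rounding, the counts were analysed in R 4.3.3 by edgeR 4.0.16 (TMM, default low-count filter, quasi-likelihood test, robust dispersion, genotype alone). Benjamini-Hochberg adjusted p under 0.05 called a gene. SE was derived from the F statistic. The deposited table's totals set the depth. Over all tested genes together, replicates differed by a chi-square of at least 6.54 per degree of freedom, more than counting error alone gives. Pairs with gKO replicate 3 were at 105.3 and 105.6, all other pairs at 6.54 to 13.4. Genes with many counts weigh most in these values, so they do not cover genes with few counts. TPM and lengths use the longest coding GENCODE M21 transcript, with 23368 symbols matched by name, 677 by synonym and 366 unmatched. On simulated counts for this comparison (median of 13048 genes), the test recovered 2.69% of 1.5-fold, 30.7% of 2-fold and 78.2% of 4-fold changes. Of its 405 calls at an adjusted p under 0.05, 8.64% were false. No simulated library had a length trend like that of gKO replicate 3. Other settings tried were upper-quartile and RLE scaling, limma 3.58.1 (voom, plain or with quality weights), DESeq2 1.42.0, weaker and stricter filters, a replicate block, length-trend removal and dropping each library.

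The 10 genes, the lists and the tests were chosen with earlier results of these data known. Named were the 10 genes; in each list the called genes, or the 2 with the smallest p; and the 3 genes closest in pattern to the 2 widest-ranging members with a mean of at least 10 CPM. Genes called without gKO replicate 3, and Ccl4 and Dkk2 from the authors' lists, were named after their values were seen. A result of the lipid-handling list is not reported here.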

Additional observations from a re-analysis of the deposited data

How the results depend on the processing

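Of 150 values of the 10 genes under 15 alternatives, 12 changed sign and 2 passed the threshold, both without gKO replicate 3; Lpl, Cst7, Clec7a, Gpnmb, Itgax and Csf1 kept their sign in every one. With the length trend removed, Apoe was at -0.046 and Spp1 at -0.074, and by voom with quality weights at -0.070 and -0.21, where the median of the 10 was -0.18. Leaving out single libraries, log2 fold changes ranged from -0.10 to 0.11 for Apoe, -0.039 to 0.30 for Trem2, -0.43 to 0.17 for Tyrobp and -0.26 to 0.18 for Spp1, with called members from 0 to 1 in each direction. All genes called then ranged from 0 to 551 higher and 0 to 528 lower, and related genes from 0 to 19 and 0 to 11, each maximum being without gKO replicate 3. Higher and lower calls over all genes (53 and 31 by edgeR) were 179 and 235 by DESeq2, 157 and 138 with the length trend removed, 261 and 152 by voom with quality weights, and 47 lower without a filter. Related genes had 4 higher and 1 lower by DESeq2, 5 and 2 with the length trend removed, and 8 and 3 by voom with quality weights. The cause of these shifts was not tested. With the replicate number as a block, 11 genes were higher and 7 lower, and 0 related genes higher; same-numbered libraries share only a number (correlations of deviations 0.0529, -0.0475 and 0.0153). The test recovered few simulated 1.5-fold changes, so changes of that size could go uncalled.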
